A study of Mus musculus with 2 samples.

Results

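The fibroblast growth factor (FGF) family of the mouse was read in uterine stromal cells with and without Hand2, which encodes a helix-loop-helix DNA-binding protein made by uterine stroma. The family was taken from a list of 33 genes that covers ligands, receptors, co-receptors, adaptors and binding proteins. Members were every probe set whose platform annotation names exactly 1 gene where that gene is on the list. This gave 32 genes with 63 probe sets, of 18193 genes on the array, while Frs2, the main adaptor of FGF receptors, was not analysed here.

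The 2 arrays came from uterine stromal cells of mice on day 4 of pregnancy. One array, the control pool, carried RNA of mice labelled Hand2 Floxed, and the other, the Hand2-null pool, that of Hand2-null mice, obtained by crossing floxed mice to PRcre mice, whose Cre recombinase is driven by the progesterone receptor gene. That receptor is made in stroma, epithelium and smooth muscle of the uterus, so the deletion is not limited by the driver to stroma. Both samples share a mixed C57BL/6 and SV129 background with Prcre listed for each, and the labels do not say whether the control mice carried the Cre allele. RNA of several mice was pooled onto 1 array for each genotype (5 mice per genotype in the series design, 4 in the extraction protocol), so differences carry neither a replicate error nor a p-value, and the number of arrays limits every value below.

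FGFs are secreted proteins that bind receptor tyrosine kinases on the cell surface together with heparan sulfate. The activated receptor phosphorylates the FRS2 adaptor, which recruits GRB2 and SOS and so switches on the RAS and ERK kinase cascade. In the uterus, stromal FGFs are known as paracrine signals to the epithelium, which carries FGF receptors and divides in response. The labels name FGFs and signalling between stroma and epithelium as the subject of the study, and the comparison below asks which family members had another signal when Hand2 was ablated.

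Values are MAS5 signals, a linear array intensity in arbitrary units that each array's scaling makes comparable for the same probe set. A signal under the 60th percentile of its array, 64.2 in the control and 67.5 in the Hand2-null pool, was treated as too dim to read and set to that floor. A gene was measured when the probe set with its highest mean log2 signal was at or above the floor of either array. A difference was counted at a log2 ratio of at least 1 in size, that is 2-fold, and ratios above 0 stand for more signal in the Hand2-null pool. As a technical yardstick, log2 ratios of probe sets for 1 gene scattered with an SD of 0.19 over 3665 genes, a spread that holds no variation between mice. Levels of different probe sets cannot be set against each other.

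By its bright probe set Hand2 itself gave 1545 in the control and 38.5, a value below the floor, after ablation, at least 22.9-fold lower. The pair of dimmer Hand2 probe sets never reached the floor, at 37.1 and 8.04 and at 18.1 and 2.46, control first. The signal of the deleted gene thus went the way of the labels, although the labels do not say which exons are removed.

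Upstream sequences of measured family members are shown, where at hand, because Hand2 acts on DNA, at E-boxes with the letters CANNTG. RefSeq sequence of GRCm38.p6 was at hand for 26 of the 33 genes, and of the 5 measured members these were Fgf7, Fgfr2 and Fgfrl1. None was at hand for Fgf1 and Fgfr1, the members counted below as at least 2-fold higher. Each line gives the 250 bases before the annotated start, 5′ to 3′ on the strand of the gene, with every CANNTG match in capitals. The windows are chr2:126034408-126034657 on the plus strand for Fgf7, chr7:130266809-130267058 on the minus strand for Fgfr2 and chr5:108693979-108694228 on the plus strand for Fgfrl1. The array files name no build, so these coordinates belong to the sequence table alone.
Fgf7: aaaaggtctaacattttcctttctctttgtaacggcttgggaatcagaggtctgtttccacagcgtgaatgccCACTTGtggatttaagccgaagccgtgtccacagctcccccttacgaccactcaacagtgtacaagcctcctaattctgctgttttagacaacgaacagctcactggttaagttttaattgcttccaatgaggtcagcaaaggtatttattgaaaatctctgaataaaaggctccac
Fgfr2: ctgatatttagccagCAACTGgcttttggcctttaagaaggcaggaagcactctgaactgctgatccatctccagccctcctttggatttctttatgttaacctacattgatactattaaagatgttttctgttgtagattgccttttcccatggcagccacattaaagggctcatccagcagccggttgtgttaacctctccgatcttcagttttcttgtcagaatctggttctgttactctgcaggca
Fgfrl1: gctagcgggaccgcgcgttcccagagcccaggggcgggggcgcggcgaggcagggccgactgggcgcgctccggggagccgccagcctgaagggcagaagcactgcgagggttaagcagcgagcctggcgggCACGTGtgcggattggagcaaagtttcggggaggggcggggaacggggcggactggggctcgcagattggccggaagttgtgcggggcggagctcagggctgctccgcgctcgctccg

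Each of these windows held 1 CANNTG match, which reads the same pattern on both strands, and its first base lay 177, 235 and 118 bases before the start of Fgf7, Fgfr2 and Fgfrl1. Of all 32851 windows of this length in the table, 66.2% held at least 1, and of the 33 windows of the family 19 did. The narrower CATCTG, a form that HAND proteins are known to bind and a subset of CANNTG, was searched on both strands and was in none of these windows. It was in 3 of the 33 windows of the family, those of Fgf6, Fgf10 and Fgf14, against 14.4% of all windows. A match is a string of letters and not a binding site.

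Of the 32 family genes, 5 were measured, or 15.6%, whereas 57.0% of all genes on the array were. The 5 were the ligands Fgf1 and Fgf7 and the receptors Fgfr1, Fgfr2 and Fgfrl1, and the other 27 genes were under the floor in both arrays by the probe set that stood for them. All 5 measured genes had a higher signal in the Hand2-null pool, where 44.7% of all measured genes did. At least 2-fold higher were 2 of the 5, Fgf1 and Fgfr1, against 1.99% of measured genes, and at least 2-fold lower were 0 of the 5, against 0.742%. The median log2 ratio of the 5 was 0.81, and that of all 10371 measured genes was -0.03, with the middle 95% between -0.66 and 0.93. Members that are measured only because the Hand2-null signal passed the floor, as Fgf1 and Fgf7 were, had to be higher there, so the direction of those is fixed by the floor, and the counts and the median are given as a description only. RNA of whole cell isolates cannot tell more cells of a type from more RNA per cell.

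**Figure D1:**
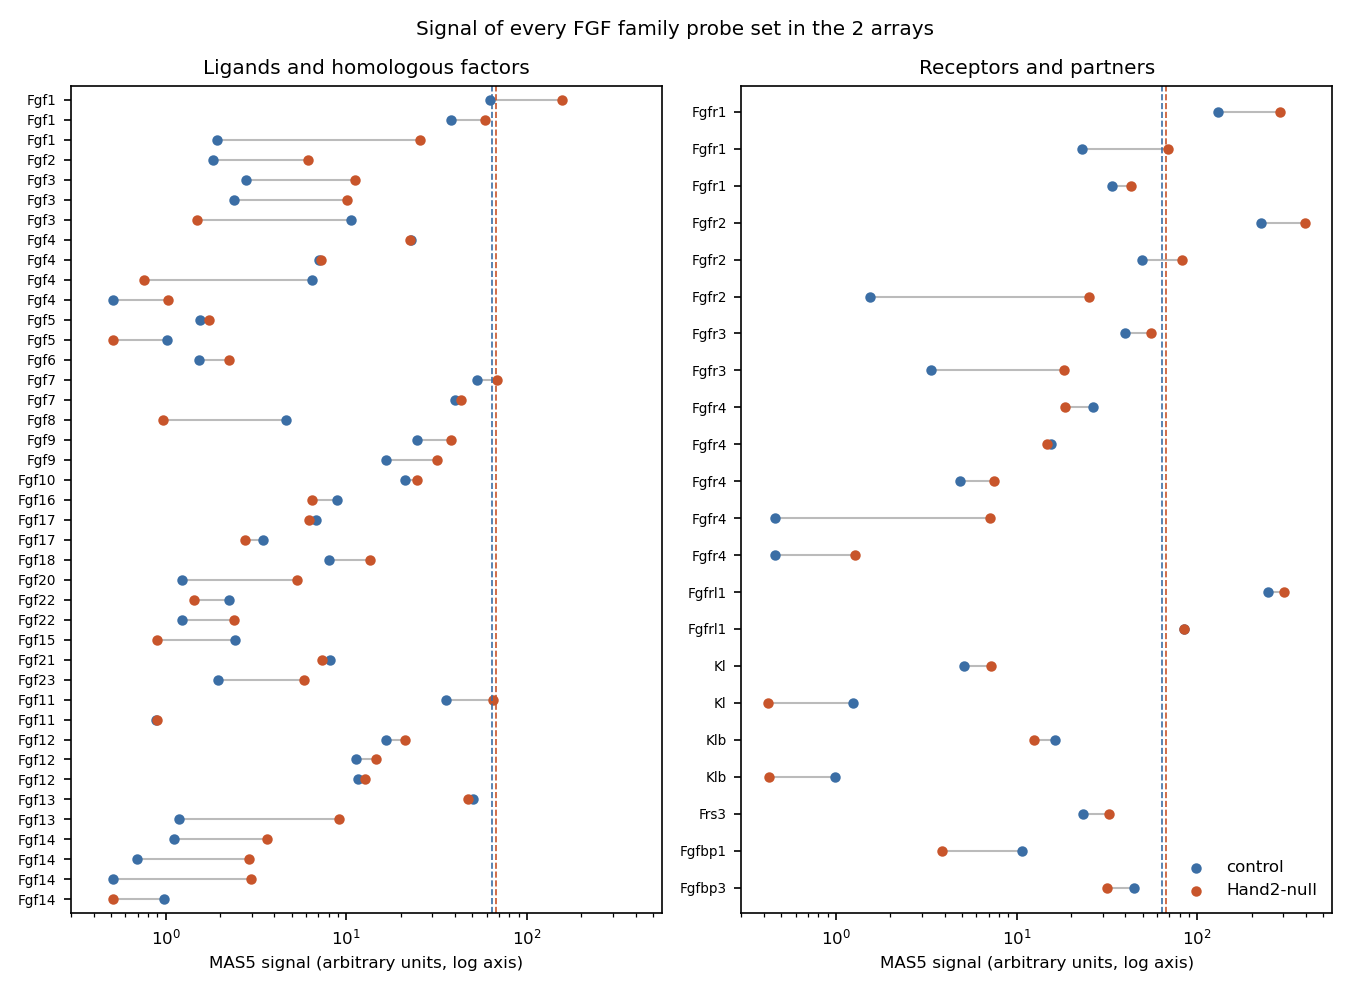
Each row is 1 probe set of the family, with the MAS5 signal on a log axis in the control pool (blue) and in the Hand2-null pool (orange), joined by a line, and dashed lines at the floors of 64.2 and 67.5. Probe sets of Fgf1, Fgf7, Fgfr1, Fgfr2 and Fgfrl1 reach a floor in at least 1 array, and the other 55 probe sets stay under the floor of their own array.

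The paracrine ligands were mostly dim, and 2 of their 27 probe sets reached the floor. Fgf1, a ligand that can bind every FGF receptor, had a signal of 62.8 in the control pool and 155 in the Hand2-null pool by its brightest probe set, 1423136_at. The control value was just under the floor of 64.2, so the difference is at least 2.42-fold. Its other probe sets, under the floor in both arrays, had signals of 38.0 and 58.4 and of 1.93 and 25.6, control first. All 3 probe sets of Fgf1 were thus higher in the Hand2-null pool, and 1 of them could be read. Fgf2, the other member of the Fgf1 subfamily and a mitogen of mesenchymal cells, has 1 probe set, at 1.82 and 6.13.

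Fgf7, the keratinocyte growth factor that mesenchyme makes for epithelium, had signals of 52.9 and 68.7 by its brighter probe set, the second barely over the floor of 67.5, which gives at least 1.07-fold. The other probe set of Fgf7 was at 40.0 and 43.0. Fgf10, the relative of Fgf7 that drives branching of epithelial buds, was at 21.2 and 24.6. The remaining members of this subfamily, Fgf22 and Fgf3, had mixed directions. Fgf22 was at 1.24 and 2.41 by one probe set and at 2.23 and 1.43 by the other. Fgf3 was at 2.80 and 11.2, at 2.40 and 10.1, and at 10.6 and 1.49, so that its 3 probe sets disagreed in direction.

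Fgf9, a ligand known from mesothelium and epithelium of developing organs, was higher in the Hand2-null pool by both of its probe sets, at 24.7 and 37.8 and at 16.7 and 31.9, all under the floor. Its relatives Fgf16 and Fgf20 were at 8.94 and 6.46 and at 1.24 and 5.34. Fgf18, a ligand known from skeletal development, was at 7.99 and 13.5, whereas Fgf8 and Fgf17 of the same subfamily were lower, at 4.65 and 0.965 for Fgf8 and at 6.80 and 6.26 and 3.48 and 2.75 for Fgf17. None of these signals came near the floor, so no fold is given for any of them. In the Fgf4 subfamily, the brightest probe set of Fgf4, a growth factor of the early embryo, was level at 22.9 and 22.6, and its other 3 probe sets lay between 0.510 and 7.26. Fgf5, which ends hair growth, and Fgf6, a factor of muscle, lay between 0.509 and 2.24 by all 3 of their probe sets.

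The endocrine FGFs, which act at a distance and need a klotho protein as co-receptor, were all dim. Fgf15, the bile acid signal of the gut, was at 2.42 and 0.899. Fgf21, a liver hormone, was at 8.14 and 7.32, and Fgf23, the phosphate hormone of bone, was at 1.95 and 5.83. Their co-receptors were dim as well. Kl, the partner of Fgf23, was at 5.10 and 7.25 by its brighter probe set and Klb, the partner of Fgf15 and Fgf21, at 16.3 and 12.6. Ligands and co-receptors of this branch thus gave no readable signal in either array.

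The FGF homologous factors Fgf11 to Fgf14 stay inside the cell, where they bind sodium channels, and are not secreted. None of their 11 probe sets reached the floor. The closest was 1439959_at of Fgf11, at 35.6 in the control and 65.3 in the Hand2-null pool, just under the floor of 67.5, while the other probe set of Fgf11 was at 0.889 and 0.898. Fgf13 was at 50.1 and 47.5 by its bright probe set and at 1.19 and 9.09 by the dim one. The 3 probe sets of Fgf12 ran from 11.4 to 16.6 in the control and from 12.7 to 21.2 in the Hand2-null pool, each higher in the second. Fgf14 had 4 probe sets, all under 4 in both arrays, with 3 higher and 1 lower.

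The receptors were the readable branch of the family, with 3 of 5 genes and 6 of 15 probe sets measured. Fgfr1, the receptor of mesenchymal cells, had signals of 131 and 286 by its bright probe set, 1424050_s_at, above the floor in both arrays and 2.19-fold higher in the Hand2-null pool. Its second probe set, 1425911_a_at, was at 23.1 and 68.6, which is at least 1.07-fold, and the third was at 33.6 and 43.0, under the floor in both. All 3 probe sets of Fgfr1 were higher in the Hand2-null pool, with log2 ratios without the floor of 1.13, 1.57 and 0.36.

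Fgfr2, the receptor through which epithelia answer Fgf7 and Fgf10, had signals of 225 and 396 by 1433489_s_at, a log2 ratio of 0.81, short of 2-fold. The second probe set, 1420847_a_at, was at 49.2 and 82.1, at least 1.28-fold higher, and the third went from 1.54 to 25.3, under the floor in both arrays. Its 3 probe sets, too, had the same direction. The splice forms of this receptor differ in the ligands that they bind, and the annotation used here does not assign the probe sets to forms.

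Fgfrl1, a receptor that lacks the kinase domain, had signals of 248 and 301 by its brighter probe set, a log2 ratio of 0.28, and 84.1 and 84.6 by the other, a ratio of 0.01. Both were over the floor in both arrays. The yardstick of 0.19 is the scatter of 1 ratio, and the gap between 2 ratios scatters more. Fgfr3, a receptor of cartilage and epithelia, stayed under the floor at 40.1 and 55.4 and at 3.35 and 18.3. Fgfr4, the receptor of liver for the endocrine ligands, had 5 probe sets from 0.462 to 26.4 in the control and from 1.28 to 18.5 in the Hand2-null pool, of which 3 were higher and 2 lower.

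Frs3, the adaptor related to Frs2, was at 23.3 and 32.6. The binding proteins, which release FGFs from the matrix, were lower in the Hand2-null pool, with Fgfbp1 at 10.7 and 3.89 and Fgfbp3 at 44.9 and 31.7. All of these were under the floor.

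Because most members were too dim for the floor, the ratios without a floor were also set beside those of all non-control probe sets of like signal. Among probe sets with a geometric mean signal under 4, the middle 95% of log2 ratios ran from -4.35 to 4.12, and 24 of the 63 member probe sets were that dim with 0 of them outside this band. From 4 to 8 the band was -3.16 to 3.07, from 32 to 64 it was -0.97 to 1.28, from 64 to 128 it was -0.77 to 1.10, and from 128 to 256 it was -0.67 to 0.98. A ratio such as the 1.75 of Fgf2 or the 2.11 of Fgf20 therefore lay well inside the range of all probe sets that dim.

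Outside the band of like signal were 5 of the 63 member probe sets, or 7.94%, where the band leaves 5% outside by construction. All 5 were on the higher side, where the band leaves 2.5% of all probe sets by construction. These 5 belonged to 3 genes. They were 2 probe sets of Fgf1 at 1.31 and 3.73, 2 of Fgfr1 at 1.13 and 1.57, and the dimmest of Fgfr2 at 4.04. Probe sets of the same gene share their RNA and are not independent. Among the 55 member probe sets under the floor in both arrays, 35 were higher and 20 lower in the Hand2-null pool, that is 63.6% higher, against 50% of all 18242 such probe sets. In 8 of the 19 member genes with several probe sets, the probe sets disagreed in direction.

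**Figure D2:**
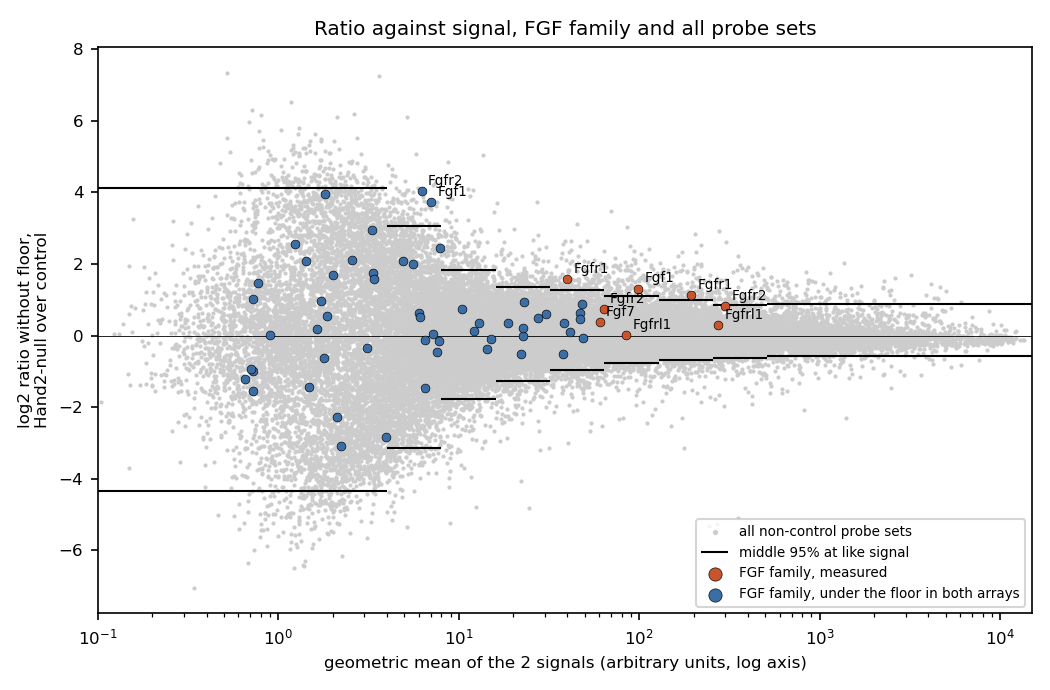
The log2 ratio without floor, Hand2-null over control, is plotted against the geometric mean of both signals on a log axis for all non-control probe sets (grey) and for family probe sets that were measured (orange) or under the floor in both arrays (blue), with black lines at the middle 95% of ratios in each signal range. Labelled points are the measured members and those outside the lines, 5 in all outside, each on the higher side.

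Partners of the receptors at the membrane and the steps after them were read from lists of pathway genes. The 9 measured membrane partners had a median log2 ratio of 0.29, with 6 higher, 3 lower and 0 at least 2-fold. Of these, Flrt1, Flrt3 and L1cam were measured only because the Hand2-null signal passed the floor. Their higher direction is fixed by the floor, so these counts and this median are a description only. Flrt2, a transmembrane protein that binds FGF receptors, was at 299 and 591, a ratio of 0.98, and its other measured probe sets showed 0.74 and 0.94. Ncam1, an adhesion molecule that can bind the receptors, was at 94.0 and 180, a ratio of 0.94, with 1.13 by a second probe set. Flrt1 was at 47.8, under the floor, and 102, a ratio of at least 0.67.

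The kinase cascade gave small ratios. Of 23 measured genes from GRB2 to the ERK pathway, 15 had more signal in the Hand2-null pool and 8 less, with a median of 0.07, a range from -0.66 to 0.34 and 0 at least 2-fold. Gab1, a docking protein that carries the signal from the receptor complex to PI3 kinase, had the largest ratio in size, with signals of 412 and 262, a ratio of -0.66, and -0.52 by its second probe set. Stat3 was at 0.34, with other probe sets at -0.07 and 0.32, and Map2k1, a kinase that phosphorylates ERK, was at 0.31.

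Feedback inhibitors and targets of ERK are read as the output of the cascade, though many other receptors feed it. The 16 measured genes of this list had a median of 0.21. More signal in the Hand2-null pool was found for 12 of them and less for 4, and 1 was at least 2-fold higher. That was Dusp5, a phosphatase of nuclear ERK, with signals of 167 and 370, a ratio of 1.14, which is 0.92 with the floor added as a pseudo-signal. Egr1, Fos and Ier3, all 3 higher at ratios from 0.19 to 0.23, are also on the list of cell handling genes given below, and without them 9 of 13 were higher with a median of 0.19. Spry2 and Spry1, inhibitors that FGF signalling induces, were at 243 and 394 and at 197 and 308. Dusp6, another phosphatase that FGF signalling induces, was at 430 and 587, a ratio of 0.45, whereas Etv5, a transcription factor of the same kind, was at 178 and 136, a ratio of -0.39, and Myc was at -0.71. Dusp6 and Etv5 were added to the named genes after their values were seen, as classic FGF targets with opposite directions. Shisa3, with a larger ratio in size than either, was at 93.3 and 21.9, the second under the floor. That is a ratio of -0.47 or lower, with its direction fixed by the floor, and a second probe set showed -0.75.

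Heparan sulfate, the sugar that holds ligand and receptor together, showed no common direction. Among 23 measured proteoglycans and enzymes, 11 higher and 12 lower, the median was -0.03, as over all measured genes, and 0 were at least 2-fold in either direction. The glypicans Gpc3 and Gpc1, anchored in the membrane, were at 361 and 198 and at 715 and 455, ratios of -0.86 and -0.65. Hpse, the heparanase that cuts the chains, was at 74.5 and 115, a ratio of 0.63.

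**Figure D3:**
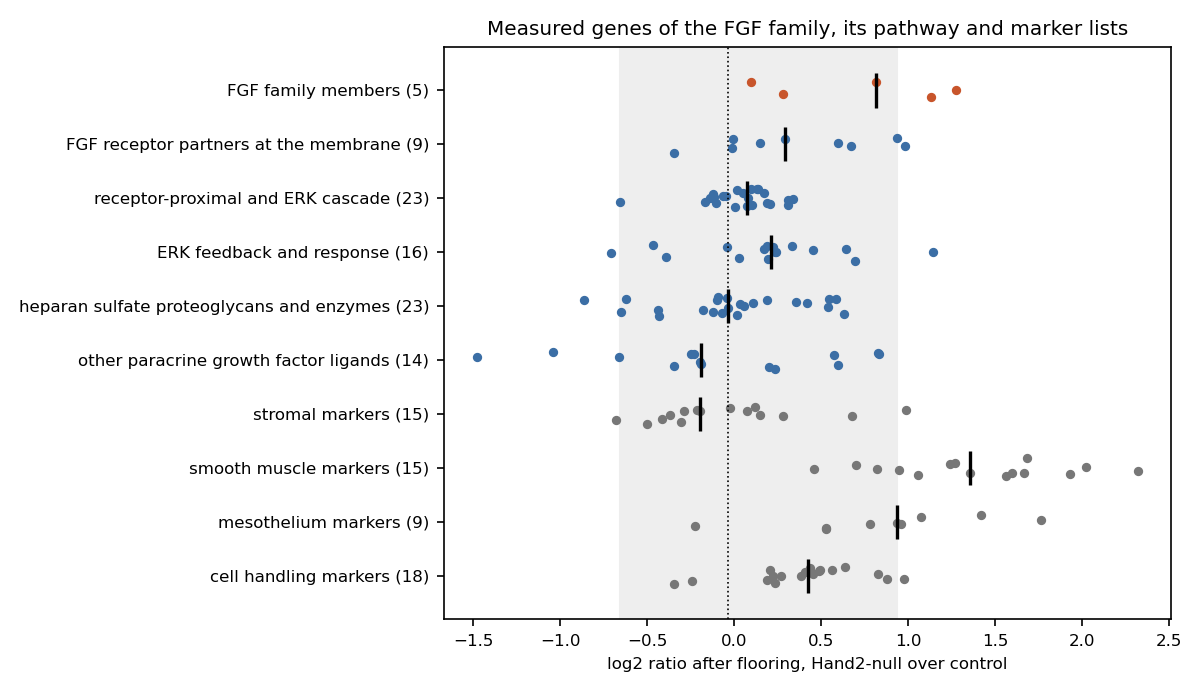
Each point is a measured gene, placed by its log2 ratio after flooring, for the family members, 5 pathway or growth factor lists and 4 marker lists, with the number of genes in brackets and a black bar at each median. The dotted line marks the median of all measured genes, -0.03, and the grey band their middle 95%, from -0.66 to 0.93. The medians are 0.81 for the family and 1.36 for the smooth muscle markers.

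Markers of cell types in the isolate differed in direction between lists. The highest medians were those of smooth muscle and mesothelium markers, and medians of stroma, endothelium and leukocytes were below 0. The 15 stromal markers were all measured, with 6 higher, 9 lower, a median of -0.20 and summed signals of 59725 and 64238, so markers of the labelled cell type could be read. The smooth muscle markers had summed signals of 28202 and 58945 and a median of 1.36, all 15 being higher in the Hand2-null pool and 11 at least 2-fold. Of 9 measured mesothelium markers 8 were higher, 3 at least 2-fold, with a median of 0.93, the floored value of Msln. Sums over the 10 mesothelium markers on the array, measured or not, were 1687 and 2884. Bright probe sets weigh most in all these sums. Msln, Lrrn4, Upk1b and Cldn15, like Oxtr and Myocd of smooth muscle, were measured only because the Hand2-null signal passed the floor. The higher direction of these genes is thus fixed by the floor, and the counts and medians are a description only. The 15 epithelium markers had a median of 0.16, 10 higher and 5 lower, 1 at least 2-fold higher, with sums of 9495 and 10896. Of 18 genes that respond to cell handling 16 were higher, with a median of 0.42 and sums of 44971 and 57056. Endothelium and leukocyte markers had medians of -0.09 each, with 3 of 10 and 3 of 8 higher. The endothelium genes lay far apart, since Cldn5, a tight junction protein, was 2.94-fold higher and Cdh5, the cadherin of endothelium, 2.16-fold lower, the latter at -0.97 with a pseudo-signal. The mesothelium and epithelium lists share 1 gene, Krt19, and no marker was listed at 0. The part of these cell types and of handling in the values of Fgf1, Fgfr1, Fgfr2 and Dusp5 was not tested.

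The values of the 5 measured members depended on how dim signals and several probe sets were treated. Fgf1 had a ratio above 0 under all 8 alternatives that gave it a value, from 0.81 to 1.31, and was not measured with the floor at the 75th percentile. Fgfr1 ran from 0.61 to 1.16 and was at least 2-fold higher in 5 of 8, and Fgfr2 ran from 0.58 to 0.84. Without probe sets that can bind several transcripts, named by _x_at, _s_at or _a_at, none of Fgfr1, Fgfr2 and Fgfrl1 was measured. Their readable probe sets are all of that kind. Adding the floor as a pseudo-signal, or raising it to the 75th percentile, left 0 family genes at least 2-fold higher.

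**Figure D4:**
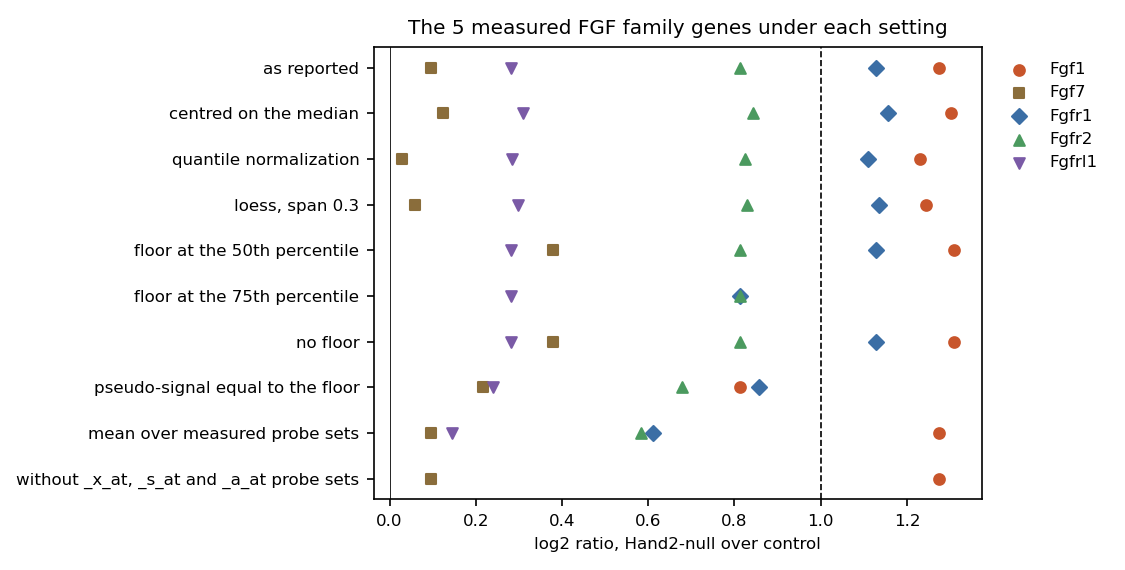
The log2 ratio of each of the 5 measured family genes, Hand2-null over control, is plotted for the reported setting and 9 alternatives, with a dashed line at a ratio of 1. A missing symbol means that the gene was not measured in that setting. All values lie above 0, and those of Fgf1 and Fgfr1 are 0.81 and 0.86 with a pseudo-signal. The lowest value of Fgfr1 is 0.61, by the mean over measured probe sets.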

How the data were processed

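Transcripts of uterine stromal cells were measured on 2 Affymetrix mouse arrays, 1 for each genotype. The authors deposited a linear intensity for every probe set, the MAS5 signal, and the submitters' processing notes name MAS5 and version 1 of Affymetrix Expression Console. Trimming 2% at each end left a mean signal of 150.001 in either array, so both had been scaled to a common mean. No further normalization is stated in the labels or files used. This scaling takes most transcripts as equal between arrays. Since MAS5 corrects each probe by its mismatch partner, dim probe sets have unsteady ratios.

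The arrays hold 45101 probe sets, of which 64 controls were left out. The platform annotation gives 1 gene for 34945 of the rest, several for 932 and none for 9160. Floors were set at the 60th percentile of each array's non-control probe sets, and ratios were computed on the log2 scale from the deposited signals. In counts, a gene was represented by its probe set of highest mean log2 signal. With 1 array per genotype no test could be made. Named genes were all members, Hand2, and from each pathway list the genes at least 2-fold different and the 3 next in size of ratio, and the text marks exceptions. The members and lists were chosen with earlier results of these data known. The closing section gives the effect of other normalizations (median centring, quantile, loess with a span of 0.3), of other floors (50th or 75th percentile, none, or the floor added to each signal), of averaging probe sets, of dropping _x_at, _s_at and _a_at probe sets, and of thresholds at 1.5-fold and 3-fold. The calling was tested on simulated data in which the altered genes were drawn from genes well above the floor. That test does not cover genes as dim as Fgf1 and Fgf7 or the members under the floor. The software was Python 3.11.15 with numpy 2.4.6, pandas 2.3.3, scipy 1.17.1, statsmodels 0.14.6 and matplotlib 3.10.9.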

Additional observations from a re-analysis of the deposited data

How the results depend on the processing

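The number of arrays limits every value, and most family probe sets have signals within the range where ratios scatter widely. No paired analysis was possible because there was 1 array for each genotype. The spread between probe sets of a gene above the floor in both arrays, 0.19, set the limit for values. A value counted as moved when it shifted by more than that in log2 ratio, and a count when it changed over 1.5 times. By this rule 115 of 147 values and counts of the main comparison and lists stayed, none changed sign among those at least 2-fold different, and 32 moved, as follows. Median centring, quantile normalization and loess moved none of them, and centring, the largest of these shifts, changed the median of all genes from -0.03 to -0.01. With the floor at the 50th percentile the family median was 0.42, Fgf7 0.38 and the membrane partners 0.50. The sodium channel median changed sign there, to 0.094 from the reported -0.80, which rests on 2 genes. With the floor at the 75th percentile 117 genes were at least 2-fold higher, 45 lower and 0 of the family higher, Fgfr1 was at 0.81 and the sodium channels at -0.57. With no floor 1646 genes were higher and 1626 lower, in the family 7 and 3, the family median was 0.37, Fgf7 0.38, the membrane partners 0.50 and the sodium channels -0.56. A pseudo-signal gave 117 and 40 genes, 0 of the family, Fgf1 at 0.81 and Fgfr1 at 0.86. The mean over probe sets left 1 family gene at least 2-fold higher, with a family median of 0.58, Fgfr1 at 0.61 and Fgfr2 at 0.58. Without _x_at, _s_at and _a_at probe sets 1 family gene was at least 2-fold higher. At 1.5-fold 644 genes were higher and 345 lower, and at 3-fold 49 and 20 with 0 of the family. Of the remaining values, mostly those of named genes and marker lists, 516 stayed and 54 moved. Among the latter, Ncam1 was at 0.14 and the smooth muscle median at 1.15 with the floor at the 75th percentile. With a pseudo-signal Hpse was at 0.40 and Igf2 at 0.56. The cause of these shifts was not tested beyond the construction of each alternative.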

Other observations

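Other paracrine growth factors of the isolate were mixed in direction. Of 20 such ligands on the array 14 were measured, or 70.0%, with 6 higher and 8 lower in the Hand2-null pool and a median log2 ratio of -0.19. At least 2-fold higher were 0 and at least 2-fold lower 2. Hgf, the hepatocyte growth factor that mesenchyme makes for epithelium, had signals of 249 and 89.2, a ratio of -1.48, although a second probe set showed 0.02. Pdgfd, a platelet-derived growth factor, was at 678 and 329, a ratio of -1.04, with -0.30 by a second probe set. Neither was 2-fold lower by the mean over probe sets, at -0.73 for Hgf and -0.67 for Pdgfd, or with a pseudo-signal, at -0.998 and -0.90, and Hgf was at -0.59 with the floor at the 75th percentile. Igf1, an insulin-like growth factor of the estrogen-exposed uterus, was at 6144 and 3888, a ratio of -0.66, and its other measured probe sets ran from -1.17 to -0.66. Igf2 and Pdgfa were higher, at ratios of 0.83 and 0.82, the latter with 1.21 by a second probe set. The difference between these ligands and the FGF genes was not tested.

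Sodium channel subunits, listed because FGF homologous factors bind these channels, were mostly dim too. Of 9 genes 2 were measured, with a median log2 ratio of -0.80 that became 0.094 with the floor at the 50th percentile. Scn4b had signals of 127 and 23.0, the second under the floor, a ratio of -0.91 or lower, with its direction fixed by the floor. Scn2b had 244 and 152, a ratio of -0.68. Both are beta subunits, which sit beside the pore, so no pore-forming subunit of the list was measured.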
